A study of Mus musculus with 3 samples.

Results

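The 10 genes described here are Ager, Hopx, Rtkn2, Akap5, Pdpn, Aqp5, Clic5, Emp2, Igfbp2 and Vegfa, a set of genes of alveolar type 1 (AT1) differentiation, out of 32287 features counted in the series. They were taken by name, all 10 were found, and their unique molecular identifiers (UMIs) were followed across cell classes that were gated on other marker genes. The question was which AT1 genes are already present in alveolar type 2 (AT2) cells, in cells with p53 target genes and in Krt8-rich transitional cells, and which are found at their full level only in AT1 cells. The data were 3 droplet-based single-cell libraries from whole mouse lung at 4 weeks after bleomycin injury, all from mice of the genotype Scgb1a1-CreER;Sftpc-DreER;R26-TLR. The Club-Tracer library held sorted tdTomato+ cells, in which the promoter of the club cell gene Scgb1a1 drives Cre. The BASCs-Tracer library held ZsGreen+, tdTomato+ cells, in which both drivers had acted, as in bronchioalveolar stem cells. The AT2-Tracer library held ZsGreen+ cells, in which the promoter of the surfactant gene Sftpc drives Dre. Each lineage label had 1 library, no uninjured library was analysed here, the labels do not give the number of animals, and no test between groups was possible.

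AT1 cells are the thin, flat cells that cover most of the gas-exchange surface, and AT2 cells make surfactant and act as their progenitors after injury. On the way, AT2 cells lose surfactant genes and can pass through states marked by p53 target genes such as Cdkn1a and by keratins such as Krt8. Among the genes followed, Ager encodes the receptor for advanced glycation end products, a membrane protein of AT1 cells. Hopx is an atypical homeodomain protein, and Rtkn2 is a gene with high expression in AT1 cells. Akap5 anchors protein kinase A, Clic5 is a chloride intracellular channel protein tied to the actin cortex, and Emp2 is a tetraspan epithelial membrane protein. Pdpn, or podoplanin, is a membrane mucin-like glycoprotein, Aqp5 a water channel, Igfbp2 a secreted insulin-like growth factor binding protein, and Vegfa a growth factor for endothelial cells.

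For barcodes with at least 500 genes and at most 15% mitochondrial UMIs, the libraries held 3196 (Club-Tracer), 1402 (BASCs-Tracer) and 5859 (AT2-Tracer) cells. Median depth was 15406, 15221.5 and 9682 UMIs per cell in that order, and the deposited UMIs of all barcodes came to 62570890, 29013077 and 72256580. The tdTomato transcript was at 622, 1173 and 0.925 CPM (UMIs of a gene per 1000000 UMIs) and the ZsGreen transcript at 26.2, 8046 and 5812 CPM in the same order. Pairs of libraries shared between 6 and 23 kept barcode sequences. Although the cells are labelled as lung epithelial, immune-gated cells were 2.16% of the Club-Tracer library, 9.27% of the BASCs-Tracer library and 33.4% of the AT2-Tracer library. Those cells served as the background for each gene, since droplets also capture free RNA. Endothelial markers at the level of a gate were found in 10, 4 and 13 cells, too few to use.

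Classes were ranges of summed marker UMIs per 10000 and not cell types. None of the 10 genes was used in a gate. AT2-gated cells had Sftpc at 200 or more, with a p53 target list (Cdkn1a, Ccng1, Phlda3, Mdm2, Eda2r, Zmat3, Trp53inp1 and Aen) under 20 and a transitional list (Krt8, Cldn4, Krt18, Krt19 and Sfn) under 40. The p53-gated cells had the p53 list at 30 or more and the transitional list under 60. Krt8-gated cells had the transitional list at 60 or more, with the p53 list under 30 and Sftpc under 50. The p53/Krt8-gated cells had the p53 list at 30 or more and the transitional list at 60 or more, without a limit on Sftpc. AT1-gated cells had Col4a3, Col4a4, Spock2, Cyp2b10, Sema3e and Scnn1g at 15 or more in sum, with the p53 list under 30, the transitional list under 60 and Sftpc under 100, and the other alveolar classes had this AT1 list under 10. The Club-Tracer library held 339 AT2-gated, 51 p53-gated, 43 p53/Krt8-gated, 92 Krt8-gated and 28 AT1-gated cells. The BASCs-Tracer library held 257, 80, 34, 40 and 65 cells and the AT2-Tracer library 1374, 308, 182, 185 and 538 cells in these classes. The AT1-gated cells of the Club-Tracer library were under the minimum of 30 and are given as values only, and its 92 Krt8-gated cells had Gnat3, Lrmp and Gng13, genes known from tuft cells, among their leading genes and were left out of comparisons after this was seen. Within 20% of the AT1 list limit lay 214 of 3605 alveolar barcodes in the AT2-Tracer library. AT1-gated cells were shallow, with median depths of 6109 (BASCs-Tracer) and 5059.5 (AT2-Tracer) UMIs, against 30764 and 16510 UMIs in AT2-gated cells.

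**Figure D1:**
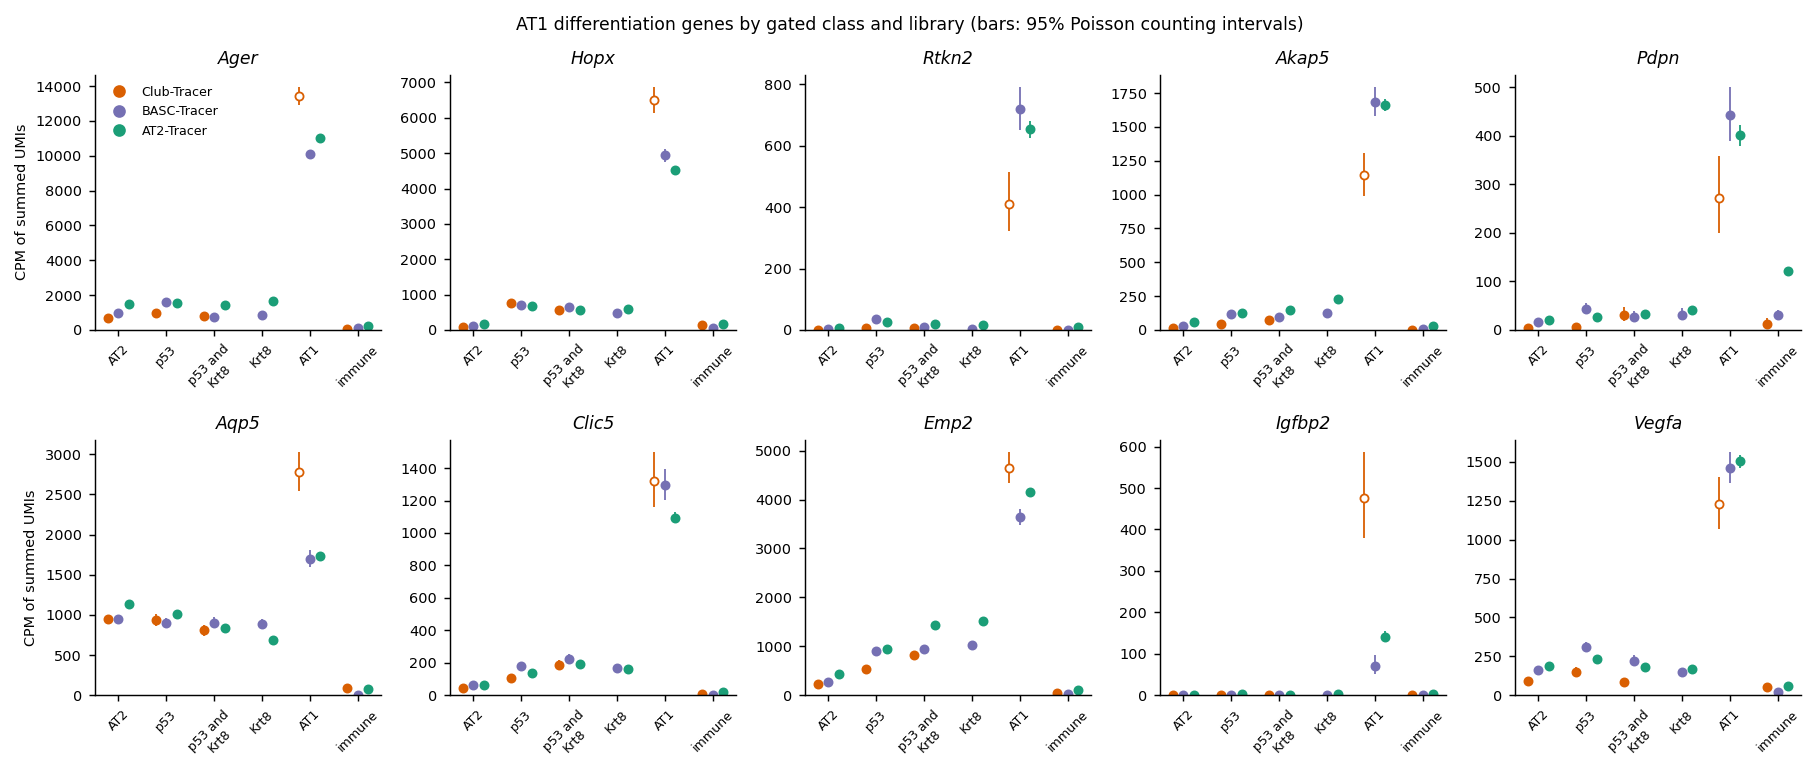
CPM of each gene in summed UMIs of a gated class (x axis, alveolar classes in order and the immune background last), with 95% Poisson counting intervals; orange points are the Club-Tracer, purple the BASCs-Tracer and green the AT2-Tracer library, and hollow points the 28 Club-Tracer AT1-gated cells. All 10 genes were highest in AT1-gated cells of the BASCs-Tracer and AT2-Tracer libraries, and Aqp5 had the smallest step from AT2-gated to AT1-gated cells in both.

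In the BASCs-Tracer and AT2-Tracer libraries the genes fell along a range from Aqp5 to Rtkn2 and Igfbp2. Aqp5 had 39.9% or more of its AT1 level in every alveolar class. Rtkn2 and Igfbp2 had at most 4.93% of theirs in the alveolar classes before AT1. Those classes left out cells at or over the upper limit on the AT1 list. Without that limit Rtkn2 stood at 15.6% in BASCs-Tracer and 13.7% in AT2-Tracer p53-gated cells. With the limit kept, Igfbp2 stood at 11.9% in AT2-Tracer Krt8-gated cells by the mean of per-cell CPM. Levels below are CPM over the summed UMIs of a class, and percentages are shares of the level in AT1-gated cells of the same library. Classes are called before AT1 by the order in which they are listed. All cells came from 4 weeks after injury, and order in time was not measured. Among BASCs-Tracer cells the median of the 10 genes stood at 4.36% of the AT1 level in AT2-gated, 14.3% in p53-gated, 10.1% in p53/Krt8-gated and 9.23% in Krt8-gated cells. For all 1323 genes that were at 50 CPM or more in AT1-gated cells and at least 2-fold over the immune background there, the medians were 50.3%, 72.2%, 72.9% and 69.2%. Among AT2-Tracer cells the 10 genes had medians of 5.20%, 13.1%, 12.1% and 13.2%, against 51.1%, 70.3%, 74.5% and 68.0% over 1373 genes. All intervals given below cover counting error only.

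**Figure D2:**
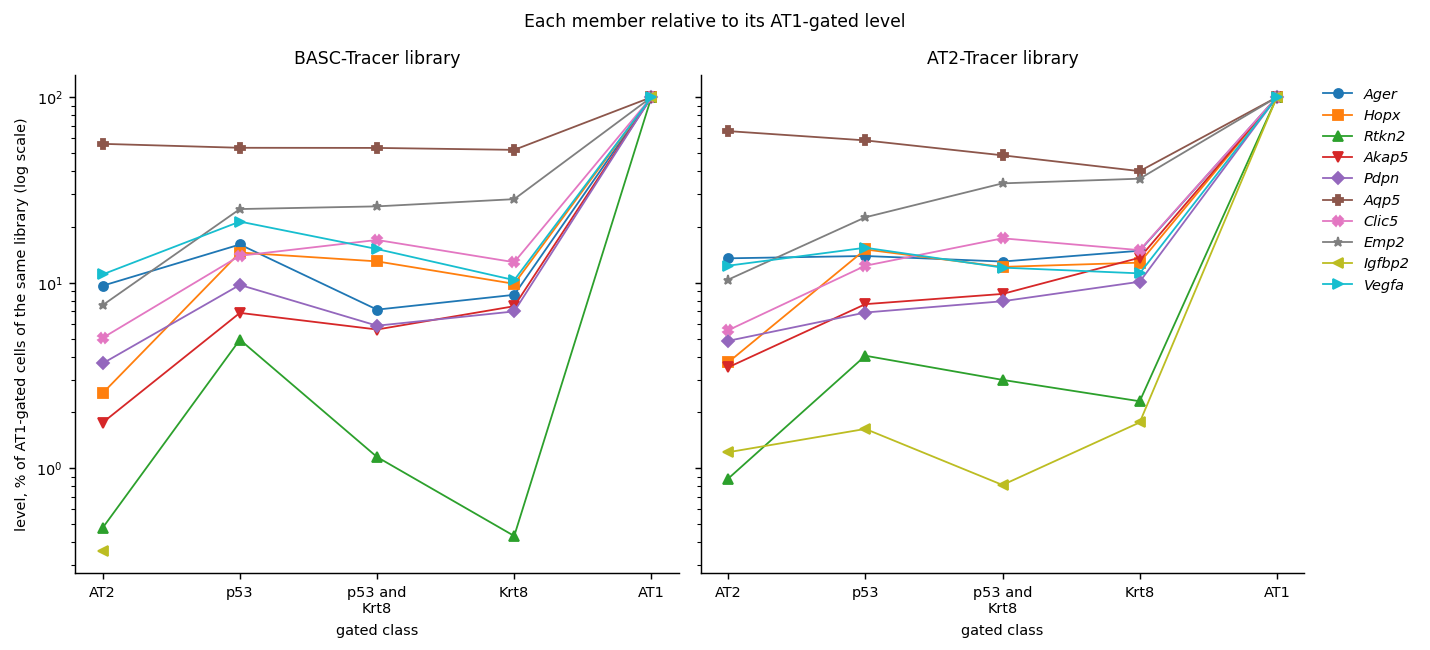
Level of each gene as a percentage of AT1-gated cells of the same library (log axis), by gated class, for the BASCs-Tracer and AT2-Tracer libraries; classes with 0 UMIs have no point. Aqp5 lies between 39.9% and 65.7% and Emp2 between 7.57% and 36.4%, while Rtkn2 stays between 0.431% and 4.93%. Cells at or over the upper limit on the AT1 list are left out of the alveolar classes before AT1.

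Aqp5, the water channel, was the least AT1-restricted of the genes. In the BASCs-Tracer library Aqp5 was nearly flat before AT1, at 951, 905, 904 and 882 CPM in AT2-gated, p53-gated, p53/Krt8-gated and Krt8-gated cells and 1696 CPM in AT1-gated cells, against 9.31 CPM in immune-gated cells. The intervals of neighbouring classes before AT1 overlapped there. In the AT2-Tracer library Aqp5 had 1136 CPM in AT2-gated, 1012 in p53-gated, 841 in p53/Krt8-gated, 691 in Krt8-gated and 1730 CPM in AT1-gated cells, against 74.1 CPM in immune-gated cells. These intermediate levels were 65.7%, 58.5%, 48.6% and 39.9% of the AT1 level, and each class differed from the next beyond counting error.

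Ager, the receptor, was present in AT2-gated cells but far below its AT1 level. Among BASCs-Tracer cells Ager had 972, 1621, 722 and 868 CPM in AT2-gated, p53-gated, p53/Krt8-gated and Krt8-gated cells and 10085 CPM in AT1-gated cells, against 101 CPM in immune-gated cells. Among AT2-Tracer cells Ager had 1495 CPM (95% interval 1480 to 1511) in AT2-gated, 1539 (1501 to 1579) in p53-gated, 1437 (1391 to 1483) in p53/Krt8-gated and 1643 (1602 to 1686) in Krt8-gated cells, then 11048 CPM in AT1-gated cells, against 215 CPM in immune-gated cells. The AT2-gated interval overlapped those of p53-gated and p53/Krt8-gated cells and no others overlapped, and Ager stayed between 13.0% and 14.9% of its AT1 level through all 4 classes. After each cell was thinned to 1500 UMIs, 81.1% of AT2-gated cells had an Ager UMI, against 10.3% of immune-gated cells, whose median depths were 16510 and 8145 UMIs. The immune-gated Ager signal was uneven among cells, with 87.5% of its UMIs in the top 10% of cells in the AT2-Tracer library. With the immune-gated level subtracted from all classes, Ager in these AT2-gated cells stood at 11.8% of its AT1 level, against 13.5% without subtraction, and it stood at 13.5% with doublets removed.

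The 250 bases upstream of the annotated starts of Ager and Emp2 (RefSeq, build GRCm38.p6) are shown because these genes differ in course in the AT2-Tracer library, where Ager changed little before the AT1 class and Emp2 was graded. Both are in gene direction 5′ to 3′ and lie on chr17:34597600-34597849 (forward strand) and chr16:10313969-10314218 (reverse strand).
Ager: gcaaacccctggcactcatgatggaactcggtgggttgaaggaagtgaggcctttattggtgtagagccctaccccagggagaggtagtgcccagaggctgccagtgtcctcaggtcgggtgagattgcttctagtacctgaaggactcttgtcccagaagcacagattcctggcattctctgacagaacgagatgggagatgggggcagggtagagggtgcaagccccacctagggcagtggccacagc
Emp2: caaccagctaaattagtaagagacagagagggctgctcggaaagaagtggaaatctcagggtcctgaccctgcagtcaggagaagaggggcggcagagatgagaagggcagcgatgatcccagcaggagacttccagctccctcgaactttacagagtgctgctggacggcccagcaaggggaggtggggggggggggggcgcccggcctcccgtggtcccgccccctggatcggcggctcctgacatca
Matches to GGAATG, the core letters bound by TEAD factors, and to CAAGTG, those bound by NKX2-1, were searched on both strands and would be in capitals. The TEAD factors and NKX2-1 are regulators of alveolar cell identity. Neither was found in these windows, nor in those of the other 7 genes with an entry; Rtkn2 had none in the table. Of 32851 promoter windows of the same length, 12.6% held GGAATG and 11.6% held CAAGTG, and windows without them were thus the majority. The Ager gene itself lies on chr17:34597862-34600936 and Emp2 on chr16:10281749-10313968 (GENCODE, GRCm38). The other genes lie on chromosomes 5 (Hopx), 10 (Rtkn2), 12 (Akap5), 4 (Pdpn), 15 (Aqp5), 17 (Clic5 and Vegfa) and 1 (Igfbp2), and all 10 are annotated as protein coding. The windows had GC contents of 57.6% (Ager) and 62.8% (Emp2).

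Emp2, Hopx, Clic5 and Akap5 had higher levels in the p53 and Krt8 classes than in AT2-gated cells, as did Pdpn and Rtkn2 at lower levels in most of these classes. Emp2, the tetraspan protein, had 533 CPM in p53-gated and 825 CPM in p53/Krt8-gated cells of the Club-Tracer library, against 225 CPM in AT2-gated cells. In the BASCs-Tracer library Emp2 had 907, 938 and 1026 CPM in p53-gated, p53/Krt8-gated and Krt8-gated cells, whose neighbouring intervals overlapped, against 275 CPM in AT2-gated cells. In the AT2-Tracer library it had 938, 1429 and 1515 CPM in these classes, against 433 CPM in AT2-gated cells, and reached 36.4% of its AT1 level of 4164 CPM in Krt8-gated cells. Emp2 was thus lowest in AT2-gated cells and next in p53-gated cells in all 3 libraries.

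Hopx, the homeodomain protein, had 756 and 577 CPM in p53-gated and p53/Krt8-gated cells of the Club-Tracer library, against 84.1 CPM in AT2-gated and 150 CPM in immune-gated cells. Among BASCs-Tracer cells it had 718, 643 and 487 CPM in p53-gated, p53/Krt8-gated and Krt8-gated cells, against 125 CPM in AT2-gated cells, and 4934 CPM in AT1-gated cells. Among AT2-Tracer cells it had 683, 550 and 580 CPM in these 3 classes and 4522 CPM in AT1-gated cells. Hopx in AT2-gated cells there was near the immune-gated level, with 168 CPM (163 to 174) against 161 CPM (155 to 167). Its UMIs were unevenly spread, with 62.4% of them in the top 10% of those AT2-gated cells, where Vegfa had 26.8% of its own. The immune-gated Hopx signal was uneven as well, with 60.4% of its UMIs in the top 10% of cells. In the BASCs-Tracer library the immune-gated level was 43.0 CPM, under the 125 CPM of AT2-gated cells.

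Clic5, the actin-linked chloride channel protein, had 181, 221 and 167 CPM in p53-gated, p53/Krt8-gated and Krt8-gated cells of the BASCs-Tracer library, against 65.4 CPM in AT2-gated cells. Its AT2-Tracer levels were 135, 190 and 164 CPM, against 60.6 CPM in AT2-gated cells, and 1094 CPM in AT1-gated cells. Akap5, the kinase anchor, was at 116, 94.4 and 126 CPM in these BASCs-Tracer classes, against 29.7 CPM in AT2-gated cells. Among AT2-Tracer cells Akap5 was at 127, 145 and 227 CPM, against 58.1 CPM in AT2-gated cells, and at 1662 CPM in AT1-gated cells. Akap5 in Krt8-gated cells was thus at 7.47% of its AT1 level in the BASCs-Tracer library and at 13.6% in the AT2-Tracer library. Its immune-gated level was 30.8 CPM in the AT2-Tracer library, so its AT2-gated level was under 2 times background there.

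Vegfa, the endothelial growth factor, was at 21.4% or less of its AT1 level before AT1 in the BASCs-Tracer and AT2-Tracer libraries. In the BASCs-Tracer library it had 162, 312, 222 and 151 CPM in AT2-gated, p53-gated, p53/Krt8-gated and Krt8-gated cells and 1460 CPM in AT1-gated cells, against 20.1 CPM in immune-gated cells. In the AT2-Tracer library it had 186, 232, 181 and 169 CPM, with 1504 CPM in AT1-gated cells, against 58.9 CPM in immune-gated cells. The p53-gated class was the highest of these intermediate classes in both libraries.

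By summed UMIs, Rtkn2 and Igfbp2 had the lowest shares of their AT1 level among the 10 genes in each alveolar class before AT1 of the BASCs-Tracer and AT2-Tracer libraries. Rtkn2 had 3.43 CPM in AT2-gated, 35.4 in p53-gated, 8.26 in p53/Krt8-gated and 3.10 in Krt8-gated cells of the BASCs-Tracer library, then 719 CPM in AT1-gated cells. In the AT2-Tracer library it had 5.74, 26.4, 19.6 and 14.999 CPM in these classes and 653 CPM in AT1-gated cells, against 8.98 CPM in immune-gated cells. Those AT2-Tracer levels are 0.879%, 4.04%, 2.99% and 2.30% of the AT1 level. In p53-gated cells its UMIs lay in few cells, with 90.3% of them in the top 10% of AT2-Tracer cells.

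Igfbp2, the growth factor binding protein, was at 0 UMIs in all 3 BASCs-Tracer intermediate classes, where 3 counts allow up to 2.08, 3.54 and 3.10 CPM in p53-gated, p53/Krt8-gated and Krt8-gated cells. It had 40, 9, 3 and 9 UMIs in AT2-gated, p53-gated, p53/Krt8-gated and Krt8-gated cells of the AT2-Tracer library, which is between 1.15 and 2.50 CPM, and 141.6 CPM in AT1-gated cells, against 1.995 CPM in immune-gated cells. By the mean of per-cell CPM in place of summed UMIs, Igfbp2 stood at 9.38% of its AT1 level in p53-gated, 4.88% in p53/Krt8-gated and 11.9% in Krt8-gated cells of that library, against 1.63%, 0.812% and 1.77% by summed UMIs. Among AT1-gated cells it lay in few, since 93.6% of its UMIs lay in the top 10% of AT2-Tracer AT1-gated cells and 8.21% of thinned cells had one. For Rtkn2 the top 10% of these cells held 19.1% of its UMIs, and 56.9% of thinned cells had one.

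Pdpn, or podoplanin, had 16.3, 43.1, 26.0 and 31.0 CPM in the 4 BASCs-Tracer classes before AT1 and 443 CPM in AT1-gated cells, against 30.1 CPM in immune-gated cells. AT2-Tracer cells had 19.5, 27.7, 31.8 and 40.6 CPM before AT1 and 401 CPM in AT1-gated cells. Immune-gated cells of that library were higher than all 4, at 121 CPM, so they are not a low background for Pdpn.

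A gene was counted as on in a class at 2 or more times the immune-gated level of the same library (or 3 counts, where that is higher) from over 3 UMIs, a limit of size without a test. By this count 5 of 10 genes were on in AT2-gated cells of the Club-Tracer library, 7 in p53-gated and 7 in p53/Krt8-gated cells. The shares over all genes at 50 CPM and on in AT1-gated cells were 45.4%, 65.3% and 72.4% there, and rest on its 28 AT1-gated cells. Among BASCs-Tracer cells the count was 7 of 10 in AT2-gated (55.3% of all such genes), 8 in p53-gated (76%), 8 in p53/Krt8-gated (74.9%) and 7 in Krt8-gated cells (70.7%). Among AT2-Tracer cells it was 5 of 10 in AT2-gated (54%), 8 in p53-gated (76.5%), 8 in p53/Krt8-gated (78%) and 7 in Krt8-gated cells (71%). These counts were near the shares over all genes. The count of 5 in AT2-gated cells of the AT2-Tracer library was 7 when immune-gated cells with epithelial UMIs were left out or doublets were removed. Ager, Aqp5, Clic5 and Emp2 were on in every class just listed. By the main rule Igfbp2 was on in none of them and Pdpn only in p53/Krt8-gated cells of the Club-Tracer library. Rtkn2 was on only in p53-gated and p53/Krt8-gated cells of the BASCs-Tracer and AT2-Tracer libraries. With either of the 2 changes just named, p53-gated cells of the AT2-Tracer library had 9 genes on in place of 8. Its Krt8-gated cells then had 9 on in place of 7. The limits given for Igfbp2, Pdpn and Rtkn2 thus did not all hold under those changes.

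Between classes, differences of 2-fold or more on the scale log2((CPM + 5)/(CPM + 5)) were counted among genes at 50 CPM or more in either class. Among Club-Tracer cells Hopx, Clic5 and Emp2 were higher in p53-gated than in AT2-gated cells and 0 lower (3 of 6 measured, with 10.5% of all genes higher and 2.85% lower). Together with Akap5 they were the genes higher in its p53/Krt8-gated cells, with 0 lower (4 of 7, with 26.8% of all genes higher and 5.37% lower). These 4 of 7 were also higher, with 0 lower, in each intermediate class of the BASCs-Tracer library. Of all genes there, 8.95% were higher and 2.67% lower in p53-gated, 18.5% higher and 5.48% lower in p53/Krt8-gated, and 15.3% higher and 5.9% lower in Krt8-gated cells than in AT2-gated cells. In p53-gated cells of the AT2-Tracer library they were Hopx (log2 ratio 1.99), Emp2 (1.11), Clic5 (1.09) and Akap5 (1.07), 4 of 7 with 0 lower, where 6.73% of all genes were higher and 2.34% lower. The same 4 were higher and 0 lower in its p53/Krt8-gated cells (17.6% of all genes higher, 6.11% lower) and Krt8-gated cells (18% higher, 8.25% lower). The median of all genes in these ratios lay between 0.35 and 0.61 on the log2 scale. Relative to that median, Hopx alone was still 2-fold higher in p53-gated cells of the Club-Tracer library (2.69) and in those of the AT2-Tracer one (1.62). In the BASCs-Tracer p53-gated cells all 4 stayed 2-fold higher. Akap5 fell under 2-fold in p53/Krt8-gated cells of the AT2-Tracer library, and Clic5 in Krt8-gated cells of the BASCs-Tracer library. Each of these counts was then 3 in place of 4. Aqp5 in Krt8-gated cells of the AT2-Tracer library was 2-fold lower on that footing (-1.10), for a split of 3 higher and 1 lower in place of 4 and 0.

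In AT1-gated cells 9 of 10 genes were 2-fold higher than in AT2-gated cells of the BASCs-Tracer library, where 22.3% of all genes were higher and 10.7% lower, and 9 of 10 in the AT2-Tracer library (20.9% higher, 8.32% lower). Aqp5 was the exception in both, with log2 ratios of 0.83 (BASCs-Tracer) and 0.60 (AT2-Tracer). The log2 ratio was largest for Rtkn2, at 6.42 in the BASCs-Tracer and 5.94 in the AT2-Tracer library. Over Krt8-gated cells, 9 of 10 were 2-fold higher in AT1-gated cells of the BASCs-Tracer library (11% of all genes higher, 11.8% lower), again without Aqp5 (0.94), and all 10 in the AT2-Tracer library (11.5% higher, 8.69% lower). The smallest ratios among those called were Emp2 (1.82) in the BASCs-Tracer library and Aqp5 (1.32) and Emp2 (1.46) in the AT2-Tracer library. In the BASCs-Tracer library Vegfa alone was 2-fold lower in Krt8-gated than p53-gated cells (log2 -1.02, 1 of 7, with 4.06% of all genes higher and 4.31% lower). Krt8-gated cells did not differ 2-fold from p53-gated cells for any of the 7 measured genes in the AT2-Tracer library, where 6.75% of all genes were higher and 6.46% lower.

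The intermediate levels depended on the upper limit on the AT1 list, without which Rtkn2 in p53-gated cells of the AT2-Tracer library stood at 13.7% of its AT1 level in place of 4.04%. Among AT2-Tracer cells that met the p53 gate, 121 were over the AT1 list limit of 10 per 10000 and were left out of the p53-gated class above. Those cells had little Sftpc (median 10.6 per 10000, against 52.8 in the 308 p53-gated cells under the limit). Hopx stood at 3799 CPM in them, 84.0% of its AT1 level, against 683 CPM under the limit. Rtkn2 had 326 CPM, 49.9% of its AT1 level, against 26.4 CPM under the limit, and Ager 5302 CPM, against 1539 CPM. Igfbp2 had 21.998 CPM, 15.5% of its AT1 level, against 2.31 CPM.

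The 71 Krt8-gated cells over the limit were ordered otherwise. They had more Ager (6586 CPM, against 5302 CPM in p53-gated cells over the limit) and less Hopx (1933 CPM, against 3799 CPM) and Rtkn2 (174 CPM, against 326 CPM). Aqp5 was at 95.9% of its AT1 level in them and Emp2 at 82.5%. In the 40 p53/Krt8-gated cells over the limit Rtkn2 was at 92.2 CPM and Hopx at 1600 CPM. Median depths of these cells were 7778 (p53-gated), 13854.5 (p53/Krt8-gated) and 7954 (Krt8-gated) UMIs over the limit, against 11125.5, 13155.5 and 18336 UMIs under it. The part of doublets and of depth in these values was not tested.

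**Figure D3:**
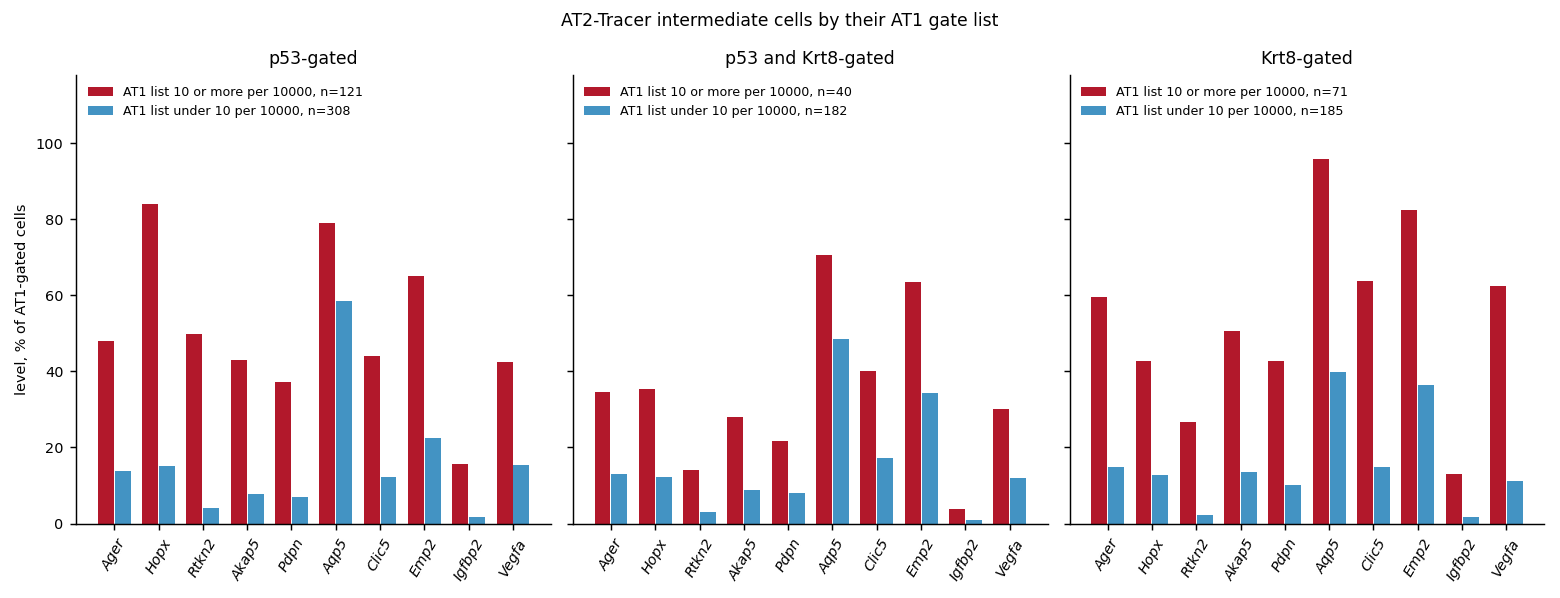
Level of each gene, as a percentage of AT1-gated cells, in AT2-Tracer cells of 3 intermediate gates, with the AT1 gate list at 10 or more per 10000 (red) or under it (blue); n is the number of cells. Every gene is higher in the red bars, which run from 15.5% for Igfbp2 to 84.0% for Hopx in p53-gated cells. For Igfbp2 in p53/Krt8-gated cells each bar rests on 3 UMIs, with overlapping intervals (1.12 to 15.9 CPM, against 0.237 to 3.36 CPM).

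Over bins of the AT1 gate list in all alveolar barcodes the genes differed in how early they approached their highest bin, and their order differed between libraries. Among AT2-Tracer cells, from the bin under 2 per 10000 through 5 to 10 and 10 to 20 to the bin of 40 or more, Ager had 1188, 3150, 5470 and 11824 CPM. Hopx had 143, 1218, 2270 and 5313 CPM in these bins and Rtkn2 had 4.89, 43.9, 146 and 827 CPM. Igfbp2 had 0.682, 6.43, 16.7 and 243.6 CPM, so most of its level was in the last bin. At 10 to 20 per 10000, Aqp5 was at 87.7% of its highest bin, Emp2 at 55.5%, Ager at 46.3% and Hopx at 42.7%. Clic5 was at 38.9%, Vegfa at 38.6%, Akap5 at 30.6%, Pdpn at 25.2%, Rtkn2 at 17.7% and Igfbp2 at 6.86% there. The same bin of the Club-Tracer library held 23 cells, and the highest bin of that library began at 20 per 10000. Rtkn2 was at 80.5% of that highest bin, Vegfa at 75.9%, Aqp5 at 69.3%, Akap5 at 68.2% and Clic5 at 64.2%. Ager was at 57.8%, Emp2 at 53.1%, Hopx at 45.8%, Pdpn at 29.1% and Igfbp2 at 0%. The Rtkn2 share came from 22 UMIs (128 CPM, 80.1 to 194), against 31 UMIs (159 CPM, 108 to 226) in the highest bin, with overlapping intervals. The Pdpn share came from 10 UMIs, against 39 UMIs. For Igfbp2 there were 0 UMIs (up to 21.4 CPM), against 2 UMIs (10.3 CPM, 1.24 to 37.0), too few to place it in the order. With 58 cells at 10 to 20 per 10000, the BASCs-Tracer library had Aqp5 at 47.1%, Emp2 at 46.3%, Vegfa at 37.1% and Clic5 at 36.9%. Akap5 and Ager were at 23.9% each there, Hopx at 23.0%, Pdpn at 20.0%, Rtkn2 at 15.6% and Igfbp2 at 8.27%. Median depth in the AT2-Tracer library was 16409 UMIs in the lowest and 5777 UMIs in the highest bin.

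**Figure D4:**
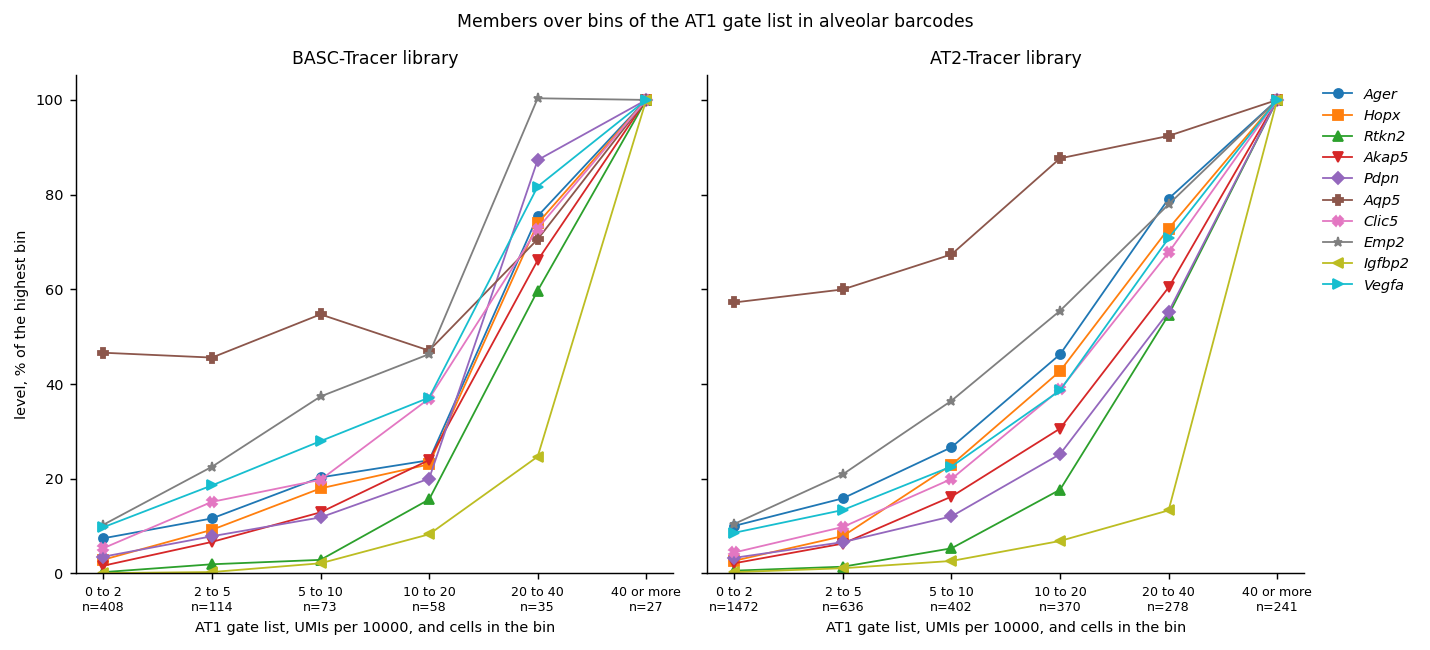
Level of each gene, as a percentage of its highest bin, over bins of the AT1 gate list (UMIs per 10000; n cells in each bin) for alveolar barcodes of 1500 or more UMIs, in the BASCs-Tracer and AT2-Tracer libraries. For AT2-Tracer cells, Aqp5 is at 57.2% of its highest bin in the lowest bin, and Igfbp2 reaches 6.86% of its highest bin at 10 to 20 per 10000.

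Within p53-gated cells the genes varied with what remained of Sftpc. In the AT2-Tracer library, 151 p53-gated cells with Sftpc under 50 per 10000 had 1107 CPM of Hopx, against 321 CPM in the 120 cells with Sftpc at 200 or more. Clic5 was at 218 CPM in the cells low in Sftpc, against 67.6 CPM. Akap5 was at 178 CPM in the cells low in Sftpc, against 74.3 CPM, and Emp2 was at 1226 CPM, against 617 CPM. Rtkn2 was at 46.5 CPM in the cells low in Sftpc, against 6.65 CPM. Aqp5 ran the other way there, at 827 CPM in the cells low in Sftpc, against 1188 CPM. The BASCs-Tracer library did not show this for Aqp5, which had 932 CPM (867 to 1002) in 45 p53-gated cells low in Sftpc, against 828 CPM (752 to 909) in 27 cells with Sftpc at 200 or more. Hopx was at 1056 CPM in the BASCs-Tracer cells low in Sftpc, against 325 CPM.

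Few of the genes were found together outside AT1-gated cells. After thinning to 1500 UMIs, AT1-gated cells had a median of 7 of the 10 genes (quartiles 6 and 8) in both the BASCs-Tracer and AT2-Tracer libraries. Among AT2-Tracer cells the median was 3 genes in each intermediate class and 2 in AT2-gated cells, against 0 in immune-gated cells. At least 5 genes were found in 94.0% of AT1-gated, 22.8% of Krt8-gated, 19.0% of p53/Krt8-gated, 13.5% of p53-gated and 6.49% of AT2-gated cells there, against 1.41% of immune-gated cells. Thinning left out 51 of 538 AT1-gated and 33 of 1374 AT2-gated cells of that library. Without thinning the medians were 9 genes in AT1-gated, 5 in AT2-gated and 1 in immune-gated cells. They were 5 in p53-gated, 6 in p53/Krt8-gated and 6 in Krt8-gated cells.

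The libraries were then compared within a class. In AT2-gated cells, Akap5 (log2 ratio -1.97) and Ager (-1.13) were at least 2-fold lower in the Club-Tracer than in the AT2-Tracer library, 2 of 7 measured, where 2.1% of all genes were higher and 3.47% lower. Akap5 had 11.1 CPM in Club-Tracer and 58.1 CPM in AT2-Tracer AT2-gated cells, and Ager 681 and 1495 CPM. Immune-gated cells differed in the same direction, with 1.57 CPM (1 UMI) and 30.8 CPM of Akap5 and 81.4 and 215 CPM of Ager. By the limit over background, Akap5 was on in AT2-gated cells of the Club-Tracer library and not in those of the AT2-Tracer library. The part of background in these differences between libraries was not tested. The other 5 measured genes were lower as well, by log2 ratios from -0.27 for Aqp5 to -0.96 for Hopx, and the median of all genes lay at -0.12. The AT1 list itself was lower in Club-Tracer AT2-gated cells, at a median of 0.224 per 10000, against 1.006 per 10000 in AT2-Tracer cells. In p53-gated cells Akap5 was again lower in the Club-Tracer library (44.0 CPM, against 127 CPM, log2 -1.43), 1 of 7, where 2.25% of all genes were higher and 3.82% lower. Hopx had 756 CPM in Club-Tracer and 683 CPM in AT2-Tracer p53-gated cells.

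None of the genes measured differed 2-fold between the BASCs-Tracer and AT2-Tracer libraries in AT2-gated, p53-gated or AT1-gated cells. Of all genes, 1.09% were higher and 0.579% lower in the BASCs-Tracer library in AT2-gated, 0.654% higher and 0.445% lower in p53-gated, and 0.995% higher and 0.681% lower in AT1-gated cells. In AT2-gated cells the 7 measured log2 ratios of BASCs-Tracer over AT2-Tracer ran from -0.86 (Akap5) to 0.10 (Clic5). In AT1-gated cells Igfbp2 came closest to 2-fold, with 70.8 CPM in the BASCs-Tracer and 141.6 CPM in the AT2-Tracer library (log2 -0.95), from 40 UMIs in 65 cells and 486 UMIs in 538 cells. The other 9 genes lay between -0.20 and 0.25. The 28 AT1-gated Club-Tracer cells had 13427 CPM of Ager, 6498 of Hopx, 4647 of Emp2, 2774 of Aqp5, 475 of Igfbp2 and 409 CPM of Rtkn2.

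**Figure D5:**
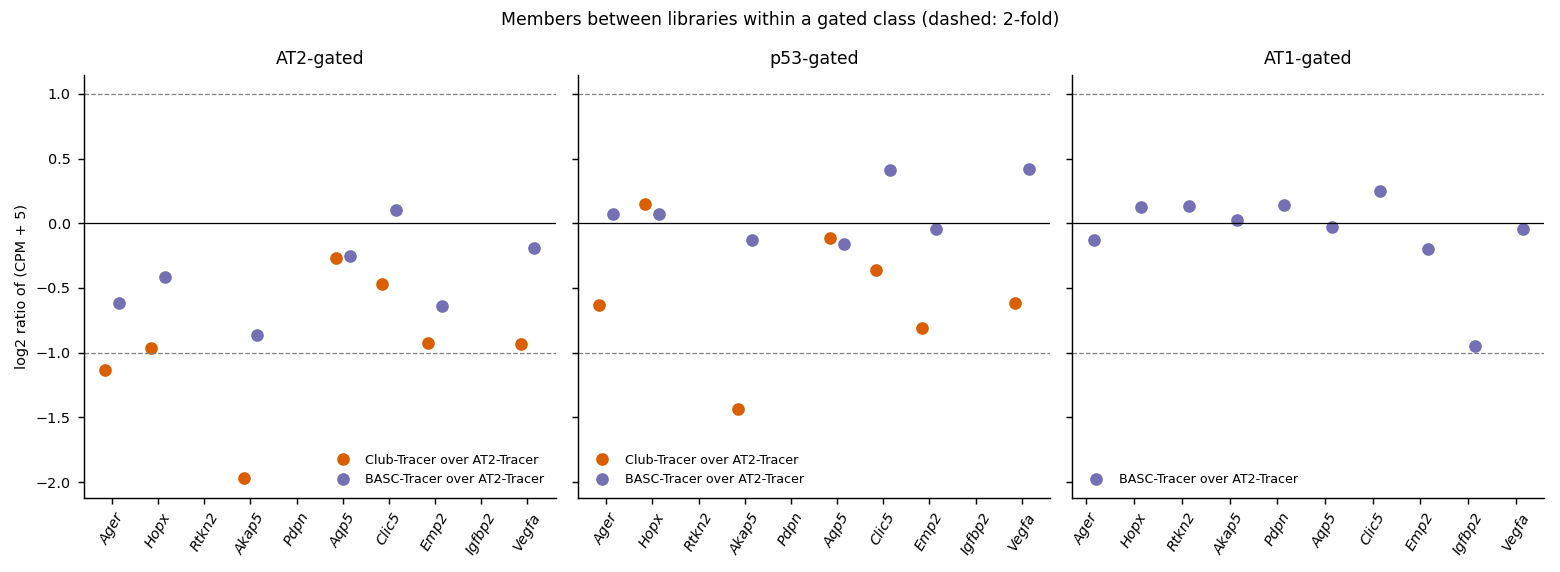
Log2 ratio of (CPM + 5) between libraries within AT2-gated, p53-gated and AT1-gated cells, for genes that reached 50 CPM in 1 or both libraries; orange is Club-Tracer over AT2-Tracer and purple BASCs-Tracer over AT2-Tracer, and dashed lines mark 2-fold. Akap5 lies at -1.97 and -1.43 in the Club-Tracer library, and no BASCs-Tracer point passes 2-fold.

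Several of the genes were also present in airway classes. Hopx had 726 CPM in ciliated-gated cells of the Club-Tracer library and 749 CPM in those of the BASCs-Tracer library, with intervals that overlapped those of its p53-gated levels of 756 and 718 CPM. Igfbp2 had 87.6 CPM in Club-Tracer and 40.3 CPM in BASCs-Tracer ciliated-gated cells. Pdpn was at 106 CPM and Aqp5 at 825 CPM in Club-Tracer basal-gated cells, against 12.5 and 94.0 CPM in immune-gated cells. Ager had 559 CPM in Club-Tracer and 602 CPM in BASCs-Tracer club-gated cells. Rtkn2 was at 0.895 CPM or less in club-gated and ciliated-gated cells of both libraries and in Club-Tracer basal-gated cells.

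A further list of 20 genes known from AT1 cells, none of them used in a gate, gave a higher median share. In the AT2-Tracer library it stood at 12.6% of the AT1 level in AT2-gated, 23.5% in p53-gated, 28.6% in p53/Krt8-gated and 31.6% in Krt8-gated cells. Bdnf and Cav1 were lowest in AT2-gated cells, at 0.916% and 1.80%, and Lamb3 and Mal2 highest, at 38.4% and 26.8%. In Krt8-gated cells Limch1 and Sema3a were lowest, at 4.97% and 11.3%, while Krt7, a keratin, was at 170% and Fstl3 at 98.3% of the AT1 level. Of the 20, 12 were on in AT2-gated, 15 in p53-gated, 16 in p53/Krt8-gated and 16 in Krt8-gated cells. Over all genes at 50 CPM and on in AT1-gated cells the shares were 54%, 76.5%, 78% and 71%, and the counts were near them. In AT1-gated cells 19 of the 20 were on, so the list was not wholly within that set. In p53-gated over AT2-gated cells of that library 3 of 12 measured were 2-fold higher and 0 lower (6.73% of all genes higher, 2.34% lower). In Krt8-gated over AT2-gated cells 10 of 15 were higher and 0 lower (18% of all genes higher, 8.25% lower).

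Over the 22 classes and libraries with at least 30 cells, the genes outside the 10 whose log2(CPM + 5) followed Ager most closely were Snhg18 (r = 0.977), Cers2 (0.947) and Wdr45 (0.937). Those closest to Rtkn2 were Lims2 (0.938), Limch1 (0.934) and Phactr1 (0.931). These are descriptions over classes that share libraries. Among the 10 genes, Ager and Vegfa were the pair most alike (0.915), and Aqp5 and Igfbp2 the least (-0.09).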

How the data were processed

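The authors deposited UMI counts per gene and cell barcode, not normalized and with barcodes already called as cells, made with Cell Ranger 6.1.1 on build mm10, per the file headers and the submitters' processing notes, from 5′ chemistry per the labels' protocols. Which annotation release they used is not given in the sources. From these counts, barcodes were filtered, gated, summed by class and library and scaled to CPM, with exact Poisson 95% intervals for levels and Clopper-Pearson intervals for shares, kept with the results. Cells were thinned to 1500 UMIs with seed 0. Doublets were kept in the main values. Calculations used Python 3.11.15, numpy 2.4.6, scipy 1.17.1, pandas 2.3.3, scanpy 1.11.5 and matplotlib 3.10.9, and the fold calls were tested on simulated data.

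All 10 genes are named. From the further AT1 list, the 2 at each end of the percent of the AT1 level are named, and the genes most like Ager and Rtkn2 are the 3 with the highest r. The members and lists were chosen with earlier results of these data known. Gate limits were meant to come from the marker lists alone, but 2 versions were tried and the AT1 list limit was lowered from 20 to 15 per 10000 after levels of the 10 genes had been seen. Other choices made after seeing values were the 3-count floor and the need for over 3 UMIs in calling a gene on, the p53/Krt8-gated class, the bins of the AT1 list, the split by Sftpc and by the AT1 list limit, and the share of UMIs in the top 10% of cells.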

Additional observations from a re-analysis of the deposited data

Results flagged for a closer look

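For 3 ratios of Ager the direction was opposite in 2 libraries, with counting intervals of the 2 classes that did not overlap in either library. None of these differences between libraries was tested, and the intervals leave out variation between cells and animals. Ager in p53/Krt8-gated over AT2-gated cells had a log2 ratio of 0.24 in the Club-Tracer library (806 CPM, against 681 CPM) and -0.43 in the BASCs-Tracer library (722 CPM, against 972 CPM). Ager in Krt8-gated over AT2-gated cells had a log2 ratio of -0.16 in the BASCs-Tracer library (868 CPM, against 972 CPM) and 0.14 in the AT2-Tracer library (1643 CPM, against 1495 CPM). Ager in Krt8-gated over p53-gated cells had a log2 ratio of -0.90 in the BASCs-Tracer library (868 CPM, against 1621 CPM) and 0.09 in the AT2-Tracer library (1643 CPM, against 1539 CPM). In the BASCs-Tracer p53-gated class 38.5% of Ager UMIs lay in the top 10% of the 80 cells.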

How the results depend on the processing

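Each library is alone in its group, so no replicate could be left out. No paired analysis was possible because each group has 1 library and no result comes from a test. No called ratio changed sign under any alternative run. All counts of genes on stayed within 1.5 times their values above under every alternative run, with ranges of 5 to 7 in AT2-gated, 7 to 9 in p53-gated and 6 to 9 in Krt8-gated cells of the AT2-Tracer library. Without minimum counts, as the rule was first worded, the Club-Tracer AT2-gated count was 7 in place of 5. The counts of 2-fold calls that moved by over 1.5 times, or to or from 0, are as follows, the cause not tested unless the setting itself gives it. With gate limits multiplied by 1.5, Krt8-gated cells had 1 gene lower than p53-gated cells in the AT2-Tracer library, and BASCs-Tracer AT2-gated cells had 1 lower than AT2-Tracer cells. With limits divided by 1.5, p53-gated over AT2-gated cells of the AT2-Tracer library had 1 higher in place of 4, Krt8-gated over AT2-gated cells there 1 lower, Krt8-gated over p53-gated cells of the BASCs-Tracer library 0 lower, Club-Tracer over AT2-Tracer AT2-gated cells 1 lower and BASCs-Tracer over AT2-Tracer AT1-gated cells 1 lower. Without secretory and mitochondrial genes in the total, p53-gated over AT2-gated cells of the AT2-Tracer library had 1 higher. With the mean of per-cell CPM, Krt8-gated over p53-gated cells of the AT2-Tracer library had 1 lower, BASCs-Tracer over AT2-Tracer AT2-gated cells 1 lower and Club-Tracer over AT2-Tracer p53-gated cells 3 lower. A pseudocount of 20 CPM gave 0 lower for Krt8-gated over p53-gated cells of the BASCs-Tracer library and 2 higher for p53-gated over AT2-gated cells of the AT2-Tracer library. With genes at 20 CPM or more, the same BASCs-Tracer comparison had 2 lower and Club-Tracer over AT2-Tracer p53-gated cells 3 lower. Without a CPM limit, which admits more genes, p53-gated over AT2-gated cells of the Club-Tracer library had 5 higher, the BASCs-Tracer comparison 2 lower, and Club-Tracer over AT2-Tracer 4 lower in AT2-gated and 3 lower in p53-gated cells. Scaled by the median ratio, p53-gated over AT2-gated cells had 1 higher in the Club-Tracer and 1 in the AT2-Tracer library, and Krt8-gated over AT2-gated cells 1 lower in the AT2-Tracer library. Without shared barcodes, BASCs-Tracer over AT2-Tracer AT2-gated cells had 1 lower. With no upper limit on the AT1 list, p53-gated over AT2-gated cells of the BASCs-Tracer library had 7 higher, Krt8-gated over p53-gated cells 2 lower there and 1 lower in the AT2-Tracer library, BASCs-Tracer over AT2-Tracer AT2-gated cells 1 lower and Club-Tracer over AT2-Tracer p53-gated cells 4 lower. That setting moved 20 of 80 percentages of the AT1 level by over 1.5 times, subtracting the immune level 18, gate limits divided by 1.5 moved 13, the mean of per-cell CPM 9, leaving out shared barcodes 1, and gate limits multiplied by 1.5 moved 4 of 70. The AT1 limit of 20 and the removal of doublets moved 0 of 80. For doublets, Scrublet by its own threshold marked 0.0313% in the Club-Tracer library, 0% in the BASCs-Tracer one and 1.72% in the AT2-Tracer one, so in the Club-Tracer and BASCs-Tracer libraries the 82 and 16 highest scores were taken. Chosen after seeing the data were the alternatives without shared barcodes, without immune cells carrying epithelial UMIs, with the AT1 limit of 20, with no upper AT1 limit and without minimum counts. An endothelial background was not run, for want of cells.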
